A study of Mus musculus with 15 samples.

Results

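The data described here are the liver RNA levels of 41 genes of vesicle and membrane trafficking, in mice given the liver toxin CCl4, its vehicle or nothing, with or without extracellular vesicles from hepatocytes. They were taken from the deposited table, whose genes comprise 1711 that were higher and 1800 that were lower with CCl4 than with oil, by the start of their symbol: Rab GTPases, annexins (Anxa), sorting and coat proteins (Vps, Snx, Chmp, Copa to Copz, Ap1 to Ap5, Clt, Arf, Arl), SNARE proteins (Stx, Vamp), ER proteins (Sec, Tmed), tetraspanins (Tspan, Cd9, Cd63, Cd81, Cd151), synaptotagmins (Syt, Sytl), Lamp, Ehd, Dnm and Cav. The symbol rule itself used no measured value, but it was set with earlier results of these data known. The table is limited to genes that its authors called different between these groups, and trafficking genes outside it, Cd9 and Cd151 among them, were not analysed here. Each of 5 groups held 3 livers of wild-type male Swiss Webster mice that were 4 to 5 weeks old at the start. The CCl4 + EVNorm group received CCl4 for 5 weeks, in 3 weekly injections of 4 μl per 25 g, and EVNorm at 80 μg per 25 g during the last 2 weeks, and the CCl4 group received the toxin alone. The oil + EVNorm group received the corn oil vehicle with the same vesicles, the oil group received the vehicle alone, and untreated littermates received neither. Livers of the injected mice were collected 36 h after the last injection of CCl4 or oil. EVNorm are vesicles released by AML12, a single line of immortalised mouse hepatocytes, so 1 cell line stands for the hepatocyte here. CCl4 is turned by hepatocytes into a radical that injures them, and repeated doses lead to fibrosis.

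Cells move proteins between compartments in small membrane carriers. Coat and adaptor proteins bud a carrier from its donor membrane, Rab GTPases mark membranes and recruit motors and tethers, and SNARE proteins fuse the carrier with its target. Endosomes then return cargo to the surface, send it to the Golgi through the retromer, or bud it inward with the ESCRT machinery. Inward budding makes the multivesicular bodies whose fusion with the surface releases exosomes, vesicles that carry the tetraspanins CD9, CD63 and CD81 and also annexins. In the liver these routes serve the secretion of plasma proteins, bile canaliculus formation and the uptake and breakdown of circulating proteins, and stellate cells and macrophages use them to release matrix and to clear debris.

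Values are normalized counts, that is reads per gene divided by a size factor for the library. Reads recovered over the table numbered 6962074 to 7747329 with CCl4 + EVNorm, 6106856 to 7886582 with CCl4, 6258733 to 7946433 with oil + EVNorm, 7619448 to 8749080 with oil and 6556647 to 11055679 in untreated livers. Oil replicates 2 and 3 lay closer together than any other pair of a group, with a chi-square per gene of 2.1 against 29.4 to 160.3. By that chi-square 15.9% of genes differed between them at an unadjusted p under 0.05. Whether they come from separate mice was not tested, and they were kept as 2 libraries. If they do not, the oil group holds fewer than 3 independent mice. Of 10 hepatocyte markers listed, the table holds Apoa1 and Cyp2e1, and their summed normalized count was 148400 to 173200 with CCl4 + EVNorm, 146800 to 168700 with CCl4, 187600 to 242600 with oil + EVNorm, 237500 to 254000 with oil and 255000 to 385300 in untreated livers. In whole liver, fewer cells of a type and less RNA per cell cannot be told apart.

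The members lay on 17 chromosomes, and 40 of the 41 code for protein. The exception was Dnm3os, a noncoding RNA transcribed from the strand opposite to Dnm3 (GRCm38 chr1:162217623-162225550, plus strand), whose exons hold the precursors of 4 mature miRNAs. These sequences are shown because they are the known products of that transcript. A further miRNA of the same family, miR-199b-3p, lies within the Dnm1 gene on the strand opposite to it. They are given from RefSeq on GRCm38.p6, from 5′ to 3′, with the seed (bases 2 to 8) in capitals.
mmu-miR-199a-5p, chr1:162217844-162217866: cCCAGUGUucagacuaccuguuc
mmu-miR-199a-3p, chr1:162217883-162217904: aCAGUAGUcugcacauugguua
mmu-miR-214-5p, chr1:162223397-162223418: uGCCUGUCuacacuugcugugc
mmu-miR-214-3p, chr1:162223438-162223459: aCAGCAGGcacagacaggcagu
mmu-miR-199b-3p, chr2:32318524-32318545: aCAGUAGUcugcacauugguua
The 199a-3p and 199b-3p entries are the same sequence and so share the seed CAGUAGU, while miR-214-3p has CAGCAGG. The miRNAs themselves were not measured, and the counts given for Dnm3os and Dnm1 are those of the genes around them.

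RefSeq promoter sequence (GRCm38.p6, 250 bases before to 50 after the RefSeq gene start) matched 34 of the 41 members. The promoters of Anxa2 and Lamp1 are shown because Anxa2 was the 1 member that fell with CCl4 + EVNorm against CCl4, and Lamp1 fell furthest with CCl4 + EVNorm against oil + EVNorm. In Anxa2 the capitals mark a TATA box (TATAAA), 3 GC boxes (GGGCGG) and an AP-1 match (TGANTCA). In Lamp1 they mark 4 E-boxes (CACGTG).
Anxa2, chr9:69453433-69453732, plus strand: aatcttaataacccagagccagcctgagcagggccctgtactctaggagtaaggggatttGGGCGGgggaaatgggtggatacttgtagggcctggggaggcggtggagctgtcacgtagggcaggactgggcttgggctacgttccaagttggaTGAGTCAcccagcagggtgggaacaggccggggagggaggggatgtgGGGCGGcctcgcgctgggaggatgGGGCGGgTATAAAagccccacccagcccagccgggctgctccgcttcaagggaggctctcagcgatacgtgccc
Lamp1, chr8:13158911-13159210, plus strand: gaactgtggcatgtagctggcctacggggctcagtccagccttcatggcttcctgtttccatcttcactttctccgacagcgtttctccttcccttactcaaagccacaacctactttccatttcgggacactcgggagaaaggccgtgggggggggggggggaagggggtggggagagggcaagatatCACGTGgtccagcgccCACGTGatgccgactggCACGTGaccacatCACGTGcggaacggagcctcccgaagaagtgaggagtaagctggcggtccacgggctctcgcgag
The matches in Anxa2 begin 95 bases (AP-1) and 17 bases (TATA box) before its RefSeq gene start. Those in Lamp1 begin 61, 45, 28 and 15 bases before its own. For Anxa2 the RefSeq start lies inside the GENCODE gene span given below, which begins at 69453620. With both strands searched, an AP-1 match was present in 2 of 34 member promoters (Anxa2 and Ap4s1) and in 7.93% of 27025 promoters of all genes. The TATA box was present in 2 of 34 (Anxa2 and Cd81), against 14.2% of all promoters. An E-box was present in 2 of 34 (Lamp1 and Syt14), against 7.24%. Of the 27025 promoters 6 held 4 or more, of which Lamp1 was the 1 in the table. That cutoff of 4 equals the number in Lamp1, a promoter shown for the fall of its gene, so this count is a description without a test. The CLEAR motif, a longer sequence that contains the E-box, was found in 0 of 34 member promoters, Lamp1 included. It was present in 0.359% of all promoters and 0.625% of those of genes in the table. The GC box was found in 18 of 34 member promoters, against 35.9% of all promoters. Of the 2401 promoters of genes in the table, 5.66% held the AP-1 match, 8.58% the TATA box, 8.83% an E-box and 58.6% the GC box. A match says only that these letters stand in the window.

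CCl4 split the members almost evenly: 21 were higher and 20 were lower with CCl4 than with oil. Of all genes listed, 48.7% were higher and 51.3% lower. Since every gene of the table was chosen on this contrast, it is given as a description without a test. The split followed level, as in the table at large. Members higher with CCl4 had a median of 8.05 normalized counts per kb of exon with oil, and those lower with CCl4 had a median of 594.5. For all genes of the table the same medians were 10.3 and 375.5. The median log2 ratio of CCl4 to oil was 1.20 for the 21 members and 1.20 for all 1711 genes that were higher. It was -0.47 for the 20 members and -0.61 for all 1800 genes that were lower.

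**Figure D1:**
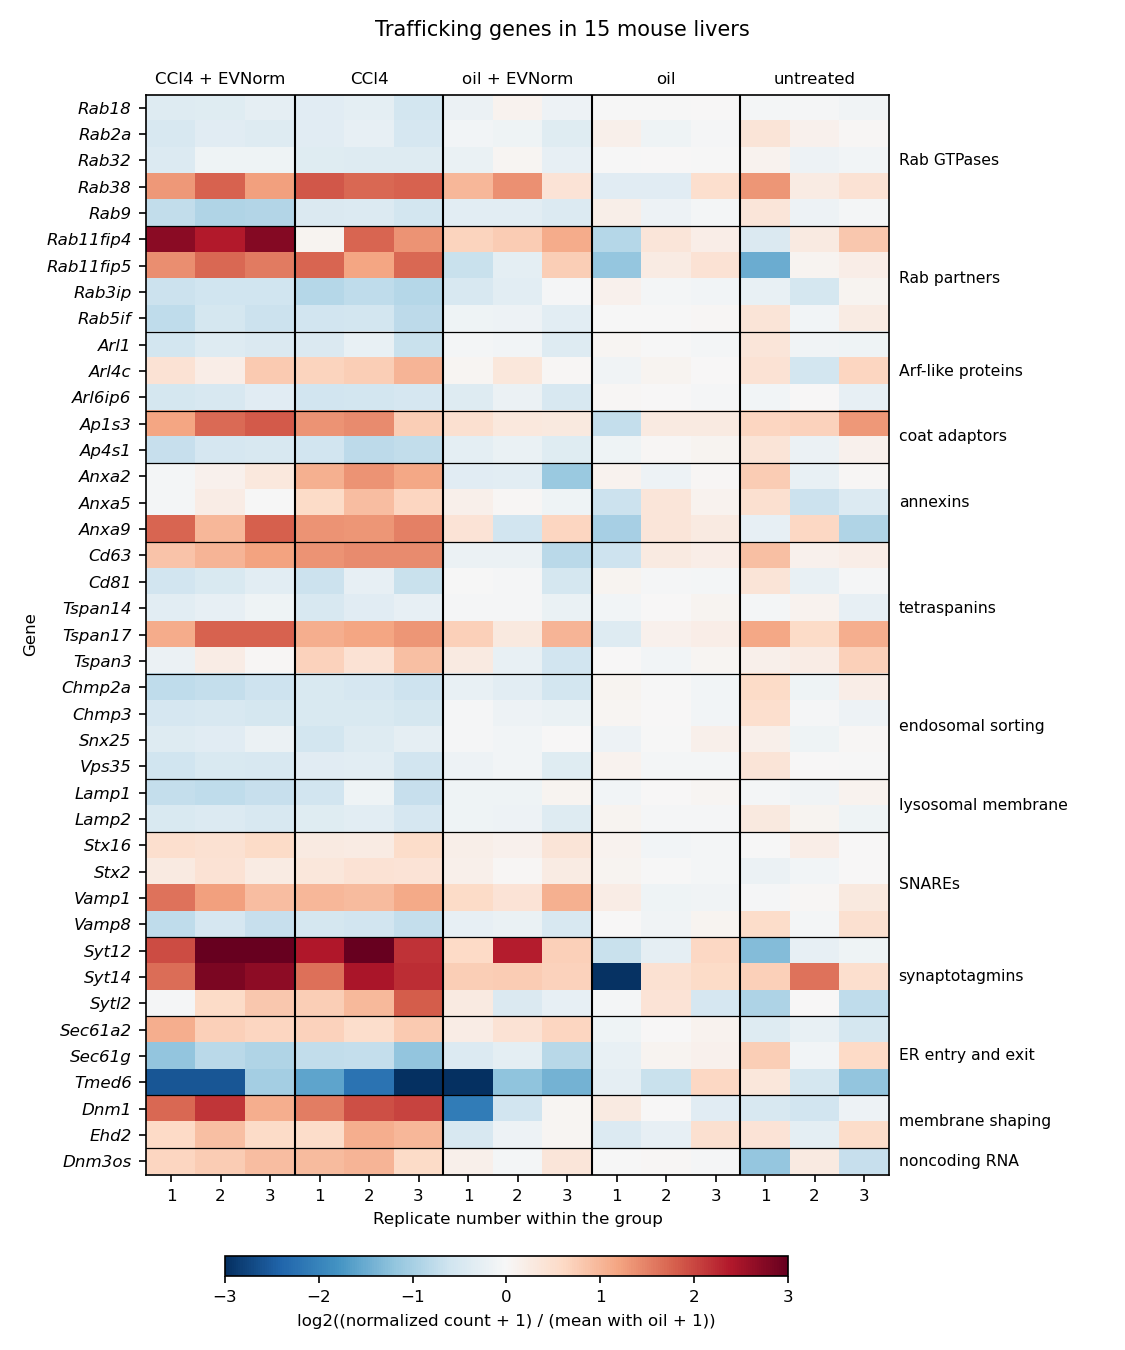
Each cell is the log2 ratio of a library's normalized count + 1 to the oil mean + 1, for 41 genes (grouped by role) in 15 livers, with colours limited to the range from -3 to 3. Synaptotagmins, Rab11fip4, Rab38 and Dnm1 were red in most livers of both CCl4 groups, and ESCRT, retromer and Lamp genes were pale blue.

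The 20 members that were lower with CCl4 comprised Rab2a, Rab9, Rab18 and Rab32 (Rab GTPases), Rab3ip and Rab5if, Arl1 and Arl6ip6, Ap4s1, Cd81 and Tspan14, all 4 sorting genes (Chmp2a, Chmp3, Snx25 and Vps35), Lamp1 and Lamp2, Vamp8, Sec61g and Tmed6. The 21 that were higher included all 3 annexins, all 3 synaptotagmin genes, both membrane-shaping genes (Dnm1 and Ehd2), and 3 of 4 SNAREs. The highest level per kb with oil was that of Lamp1 (4698), followed by Cd81 (2360) and Lamp2 (2233). The lowest levels were those of Syt14 (0.573) and Dnm1 (0.629). In 20 of the 21 raised members and in all 20 lowered members the 3 CCl4 livers did not overlap the 3 oil livers, against 97.6% of the 1711 genes that were higher and 98.9% of the 1800 that were lower in the whole table, and the exception was Rab11fip4.

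**Figure D2:**
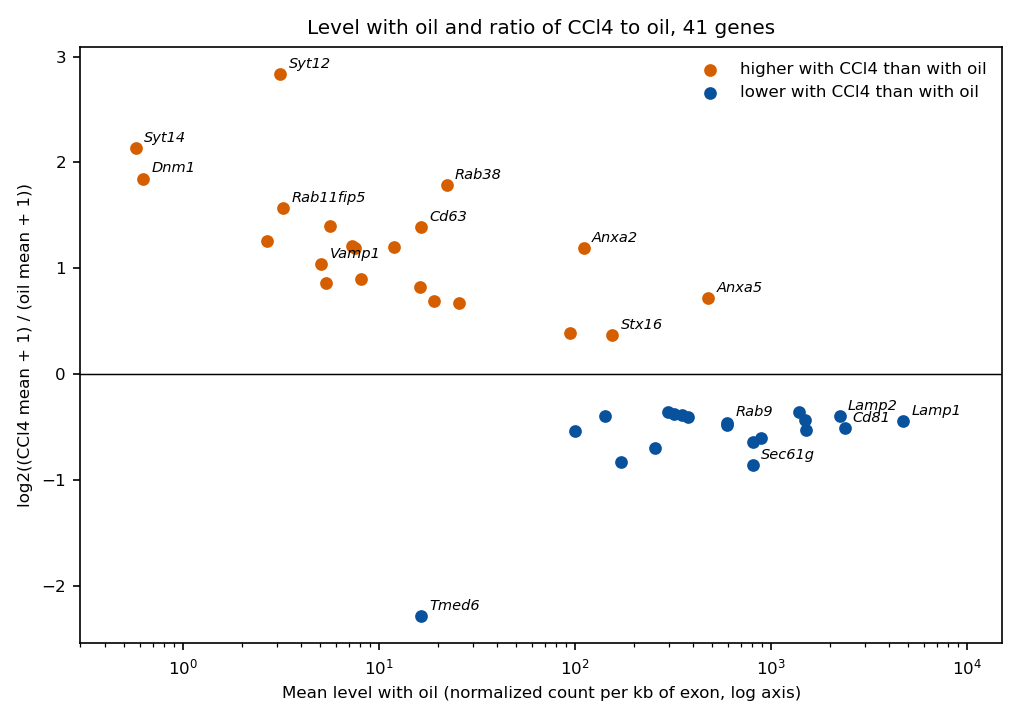
Each point is 1 of the 41 genes, with its mean level with oil (normalized count per kb of exon, log axis) against the log2 ratio of its CCl4 to its oil mean, each + 1. Apart from Tmed6, the genes lower with CCl4 reached from Snx25, Arl6ip6 and Rab3ip at the left to Lamp1 at 4698 per kb, and the 21 raised genes reached from Syt14 at 0.573 to Anxa5 at 478.

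The main question of the study was what hepatocyte vesicles change in CCl4-injured liver. Of the 41 members, 1 was higher and 1 was lower with CCl4 + EVNorm than with CCl4 at an adjusted p under 0.05 (limma on log2(normalized count + 1), Benjamini-Hochberg over all genes of the table). By the same rule 0.513% of all genes were higher and 5.16% lower. The CCl4 livers had also entered the choice of the genes of the table. A difference from them may in part follow from that choice, and this part was not tested. Changes are given as log2 fold changes with their standard error (SE). The lower member was Anxa2, which encodes the calcium-dependent membrane-binding protein annexin A2, and the higher was Rab11fip4, which encodes a Rab11 effector of recycling endosomes. The members' median log2 fold change was -0.01, against -0.07 for all genes. At an unadjusted p under 0.05, 1 member was higher and 4 were lower, against 128 and 432 of all genes of the table.

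Anxa2 lies on chromosome 9 from 69453620 to 69491795 (GRCm38). Its normalized count was 396.5, 454 and 516 with CCl4 + EVNorm, 862, 1042.5 and 925.5 with CCl4, 323, 330.2 and 191 with oil + EVNorm, 444.5, 373 and 419 with oil and 694, 354 and 425.5 in untreated livers. All 3 CCl4 livers stood above the 12 others, and the CCl4 + EVNorm livers overlapped oil and untreated livers. The mean was 455 ± 59.6 with CCl4 + EVNorm and 943 ± 91.7 with CCl4 (SD, n = 3 each), a 2.08-fold fall (limma log2 fold change -1.05, SE 0.23, adjusted p = 0.0125). Anxa2 was also lower with oil + EVNorm than with oil, without overlap, but not past the threshold (limma log2 fold change -0.59, SE 0.23, adjusted p = 0.198). The difference between the vesicle effects with CCl4 and with oil was not past it either (limma log2 difference -0.46, SE 0.33, adjusted p = 0.606). The Anxa2 call was lost without CCl4 replicate 2 (adjusted p = 0.0615 from limma) and without CCl4 + EVNorm replicate 1 (0.0574). It was also lost with adjustment counted over the 17534 genes that the authors tested (0.0622 from limma). Those outside the table have no values here and were ranked behind the genes in it, which is the strictest case.

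Rab11fip4 lies on chromosome 11 from 79591212 to 79698023. It measured 359.5, 287 and 372 with CCl4 + EVNorm, 57.2, 186 and 139 with CCl4, 87.4, 93.1 and 119.8 with oil + EVNorm, 29.6, 70.6 and 63.0 with oil and 39.8, 65.4 and 96.3 in untreated livers. Each of the CCl4 + EVNorm livers exceeded every other liver, while the CCl4 livers were spread from 57.2 to 185.8 and overlapped all remaining groups. The mean was 339 ± 45.9 with CCl4 + EVNorm and 127 ± 65.1 with CCl4 (SD, n = 3 each), a 2.94-fold rise (limma log2 fold change 1.55, SE 0.41, adjusted p = 0.0355). With oil + EVNorm it was higher than with oil without overlap, short of the threshold (limma log2 fold change 0.95, SE 0.41, adjusted p = 0.217), and the vesicle effects with CCl4 and with oil were not shown to differ (limma log2 difference 0.61, SE 0.58, adjusted p = 0.704). This call was lost on leaving out any 1 of CCl4 replicates 1 and 3 or of the 3 CCl4 + EVNorm replicates, with an adjusted p up to 0.176 from limma, without a mean-variance trend (0.0631) and with adjustment over 17534 genes (0.177). Its relative Rab11fip5, which encodes another Rab11 effector, showed no such rise (limma log2 fold change 0.01, SE 0.50, adjusted p = 0.995).

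**Figure D3:**
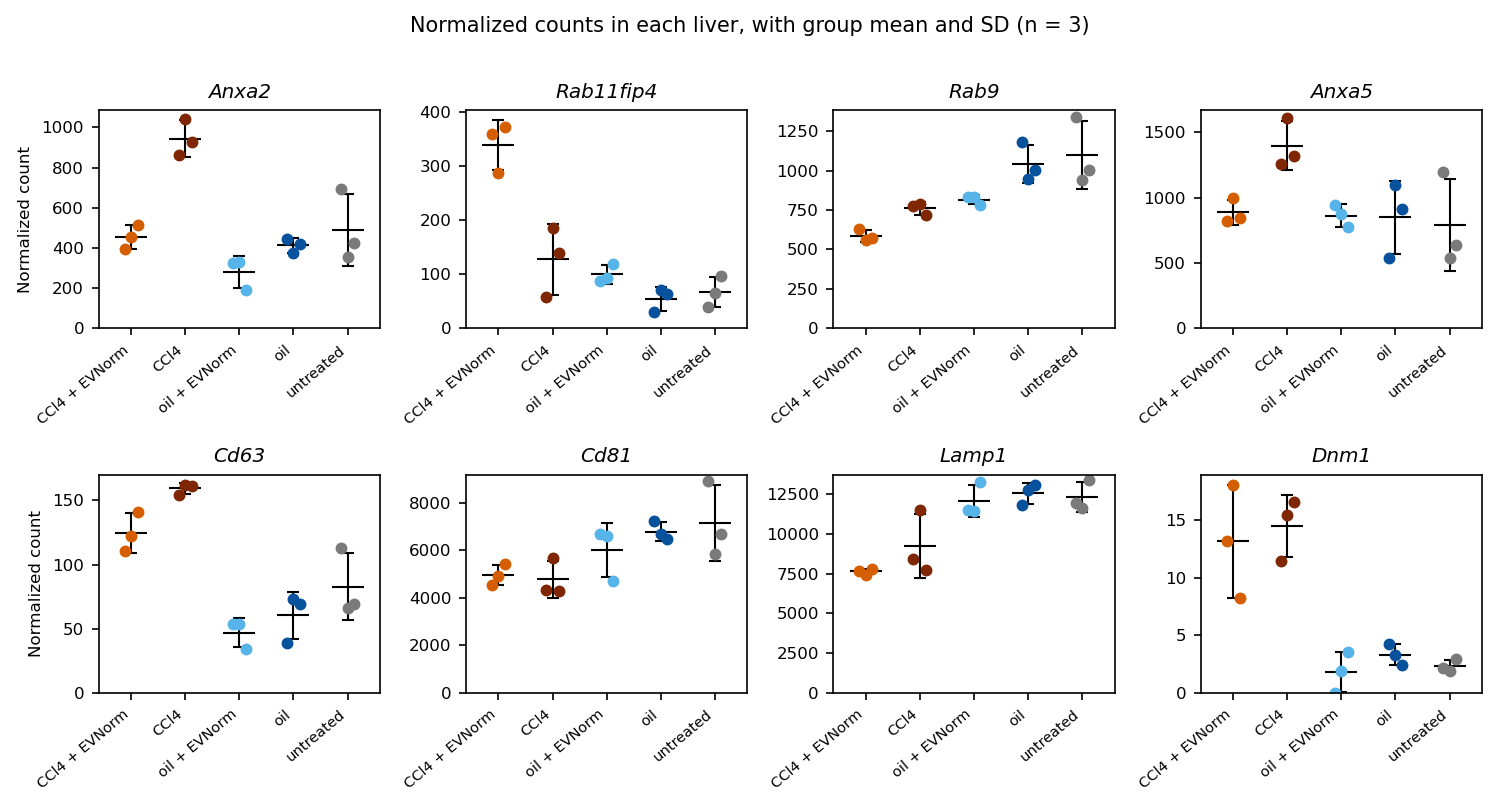
Points are the normalized counts of 8 genes in each of 15 livers, by group, with bars for the group mean and SD (n = 3); axes start at 0. Anxa2 stands apart in the CCl4 group and Rab11fip4 in the CCl4 + EVNorm group, while Cd63 and Dnm1 are high and Lamp1 is low in both CCl4 groups.

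The next 3 members by p did not pass the threshold. Rab9, a GTPase of transport from late endosomes to the Golgi, had 630.2, 559 and 569.5 with CCl4 + EVNorm and 778, 785 and 715 with CCl4, and the groups did not overlap (limma log2 fold change -0.37, SE 0.13, adjusted p = 0.136). Tspan3, a tetraspanin, had 72.4, 94.8 and 83.3 with CCl4 + EVNorm and 131.5, 111 and 154 with CCl4, again without overlap (limma log2 fold change -0.65, SE 0.24, adjusted p = 0.148). Anxa5, annexin A5, which binds exposed phosphatidylserine, had 821, 995 and 847 with CCl4 + EVNorm and 1259, 1611 and 1320.1 with CCl4 (limma log2 fold change -0.65, SE 0.26, adjusted p = 0.215). In Anxa5 too each CCl4 + EVNorm liver lay below each CCl4 liver, and fitting only these 6 livers gave an adjusted p of 0.0151 from limma. The exosome marker Cd63 was the fifth member with all 3 vesicle-treated livers below the others, at 110.2, 122 and 141 with CCl4 + EVNorm and 154, 162 and 162 with CCl4 (limma log2 fold change -0.36, SE 0.28, adjusted p = 0.603). The higher members without overlap were Rab11fip4 and Rab3ip, which encodes Rabin8, an activator of Rab8 (limma log2 fold change 0.22, SE 0.15, adjusted p = 0.572). These 2 and 5 of 41 compare with 8.0% and 20.0% of all genes whose groups did not overlap in each direction.

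Some markers of other cells moved with this comparison. The stellate cell and myofibroblast markers of the table (7 of 12 listed) summed to 11520 to 13580 with CCl4 + EVNorm and 19010 to 23650 with CCl4, and 3 of the 7 were lower (Col3a1, Lum and Reln). The macrophage markers Lyz2 and Ccr2 (2 of 12) summed to 1412 to 2067 with CCl4 + EVNorm and 3488 to 4079 with CCl4. Of these 2 only Lyz2 passed the threshold, and the other markers of that list are not in the table. All 7 measured dividing-cell markers (of 8 listed) were lower, with sums of 640.6 to 773.3 with CCl4 + EVNorm and 3354 to 4662 with CCl4. No marker of these lists in the table was at 0 in all 3 livers of a group, and their part in the change of Anxa2 was not tested.

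In uninjured liver no member passed the threshold for oil + EVNorm against oil with limma. Of all genes 0.142% were higher and 0.0854% lower. The oil livers had also entered the choice of the genes, which sets the same limit here. By unadjusted p under 0.05, 6 members were higher and 6 lower, against 379 and 382 of all genes of the table. With edgeR 0 members and 0 of all genes were called. With DESeq2 only Rab38 was called among members, as higher, while 127 of all genes were higher and 19 lower. Rab38, a GTPase of lysosome-related organelles, measured 88.0, 121.5 and 82.5 with CCl4 + EVNorm, 129.9, 117 and 122 with CCl4, 70.4, 91.2 and 46.5 with oil + EVNorm, 27.5, 27.2 and 49.9 with oil and 89.2, 41.3 and 47.4 in untreated livers. It was high in both CCl4 groups, in oil + EVNorm replicate 2 and in untreated replicate 1, and the lowest oil + EVNorm liver fell below the highest oil liver (limma log2 fold change 0.98, SE 0.33, adjusted p = 0.162). DESeq2 on recovered reads gave a log2 fold change of 1.10 with an adjusted p of 0.0386. Vamp1, a SNARE of vesicle fusion, was next by limma (limma log2 fold change 0.69, SE 0.23, adjusted p = 0.166), and its oil + EVNorm livers lay above its oil livers. The lowest p among members that were lower belonged to Rab9 and Tmed6. Rab9 gave limma log2 fold change -0.35, SE 0.13, adjusted p = 0.186, and its oil + EVNorm livers lay below its oil livers. Tmed6, a cargo receptor family member of the early secretory route, had few reads in every group, at 1.6, 1.6 and 6.5 with CCl4 + EVNorm, 4.1, 2.3 and 0 with CCl4, 0, 5.6 and 4.7 with oil + EVNorm, 11.6, 8.7 and 22.6 with oil and 18.3, 9.6 and 5.7 in untreated livers. Its log2 fold change of -2.09 carried an SE of 0.80. In 7 members every oil + EVNorm liver was above every oil liver and in 11 every one was below, against 13.4% and 23.1% of all genes.

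Both vesicle effects rest on livers, CCl4 and oil, that had entered the choice of the genes. Whether vesicles acted differently in injured and uninjured liver was tested as the difference of the 2 vesicle effects. It passed the threshold for 0 of 41 members with limma, as with edgeR and DESeq2, against 0.057% of all genes higher and 1.91% lower by limma. At an unadjusted p under 0.05, 3 members were higher and 1 was lower, against 110 and 337 of all genes of the table. The 1 lower member was Rab38, whose difference was -1.33 on the log2 scale (SE 0.46, adjusted p = 0.214 from limma). Arl6ip6, Rab3ip and Tmed6 were the 3 higher, all with an adjusted p of 0.347 or 0.361.

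The comparison of CCl4 + EVNorm with oil + EVNorm asks how CCl4 acted in mice that all received vesicles. These 6 libraries were in neither group of the contrast that chose the genes of the table. The mean count given in the table covers all 15 libraries, however, and the part of these 6 in the authors' filter was not tested. Of the 41 members 11 were higher and 6 lower (26.8% and 14.6%), against 20.5% and 29.1% of all genes. All 21 members that were higher with CCl4 than with oil had a positive fold change here, as had 1624 of the 1711 such genes of the table. Of the 20 members lower with CCl4, 19 had a negative one, as had 1765 of 1800, and the other was Tmed6. In 12 members the 3 CCl4 + EVNorm livers lay above and in 13 below the oil + EVNorm livers, against 27.7% and 36.8% of all genes. On recovered reads, with size factors estimated over the table, edgeR called 15 members higher and 3 lower and DESeq2 16 and 3. Of all genes edgeR called 888 higher and 682 lower and DESeq2 986 and 651, against 719 and 1021 with limma. The median of all genes moved up by 0.12 with edgeR and 0.14 with DESeq2 on the log2 scale. With adjustment over 17534 genes, Cd63, Dnm1, Rab11fip4 and Lamp1 were the 4 members that passed.

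**Figure D4:**
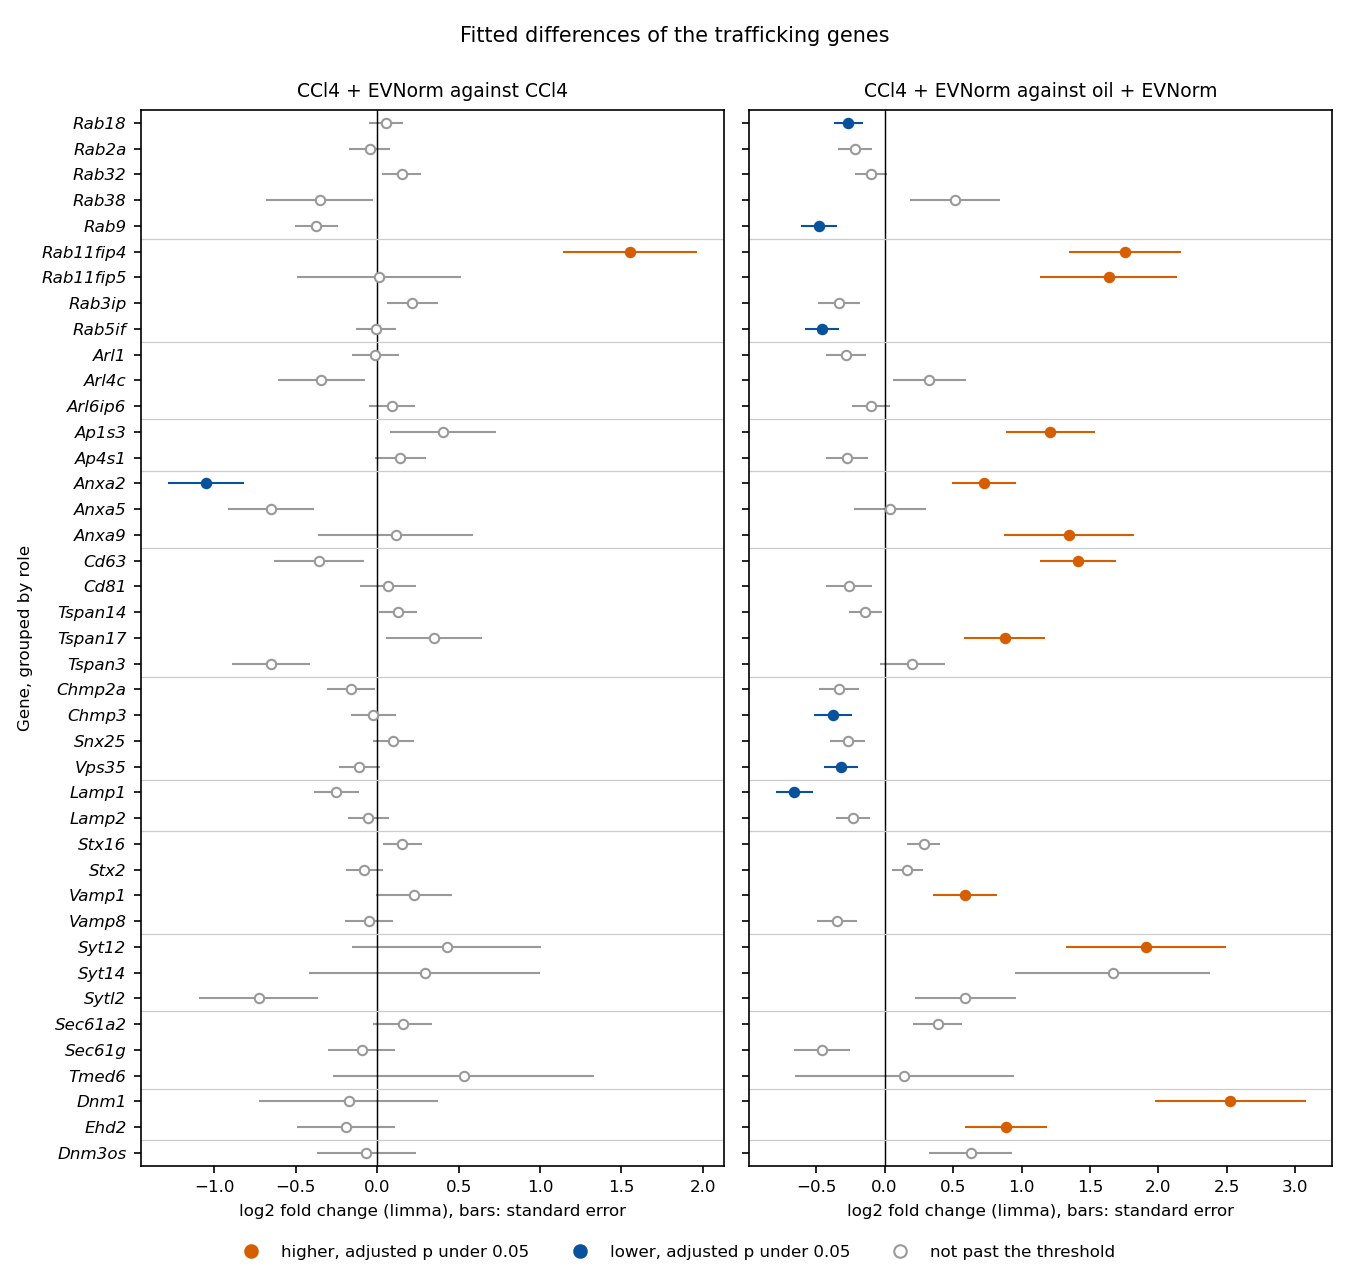
Points are limma log2 fold changes with standard errors for the 41 genes, for CCl4 + EVNorm against CCl4 (left) and against oil + EVNorm (right). Filled points passed an adjusted p of 0.05: 1 higher and 1 lower on the left, 11 higher and 6 lower on the right.

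Among the tetraspanins, Cd63 and Tspan17 rose and the other 3 did not pass the test. Cd63, whose protein marks late endosomes and exosomes, lies on chromosome 10 from 128900989 to 128912822. It measured 110.2, 122 and 141 with CCl4 + EVNorm, 154, 162 and 162 with CCl4, 53.4, 53.6 and 33.7 with oil + EVNorm, 39.1, 72.8 and 68.9 with oil and 113, 66.3 and 69.0 in untreated livers. Both CCl4 groups lay above oil and oil + EVNorm livers without overlap, and untreated replicate 1, at 112.8, reached into the CCl4 + EVNorm range. Its fold change was 2.67 (limma log2 fold change 1.41, SE 0.28, adjusted p = 0.00218). Cd81, the other exosome tetraspanin of the table, measured 4553, 4929 and 5416 with CCl4 + EVNorm, 4335, 5692 and 4303 with CCl4, 6714, 6611 and 4694 with oil + EVNorm, 7234.5, 6677 and 6475 with oil and 8951, 5844 and 6683 in untreated livers. Its CCl4 + EVNorm livers overlapped oil + EVNorm replicate 3, and the difference was not past the threshold (limma log2 fold change -0.26, SE 0.17, adjusted p = 0.195). With oil the level per kb was 2360 for Cd81 and 16.4 for Cd63. Tspan17, a tetraspanin that binds the protease ADAM10, measured 43.6, 69.8 and 69.5 with CCl4 + EVNorm, 43.3, 46.1 and 50.7 with CCl4, 32.8, 24.5 and 40.7 with oil + EVNorm, 14.8, 21.7 and 22.6 with oil and 45.1, 29.8 and 43.1 in untreated livers and was higher without overlap (limma log2 fold change 0.88, SE 0.29, adjusted p = 0.0262). The Tspan17 call was lost on leaving out oil + EVNorm replicate 1 or 2 or CCl4 + EVNorm replicate 2 or 3 (adjusted p up to 0.102 from limma). A processed copy of Cd63, Cd63-ps, matches 98.9% of 717 aligned bases, so reads common to both cannot be placed with certainty.

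Of the 3 annexins, Anxa2 and Anxa9 rose. Anxa2 averaged 455 ± 59.6 with CCl4 + EVNorm and 281 ± 78.5 with oil + EVNorm, without overlap (limma log2 fold change 0.73, SE 0.23, adjusted p = 0.022), so it remained above the vehicle level with vesicles while being below CCl4 alone. This call was lost without oil + EVNorm replicate 3, whose count of 190.7 was the lowest of the 15, and without CCl4 + EVNorm replicate 3 (adjusted p up to 0.0808 from limma). Anxa9, an annexin with atypical calcium binding, measured 41.1, 24.3 and 42.5 with CCl4 + EVNorm, 31.0, 30.7 and 35.1 with CCl4, 15.8, 7.5 and 18.6 with oil + EVNorm, 5.3, 15.2 and 14.3 with oil and 9.7, 18.3 and 5.7 in untreated livers and was higher in all CCl4 + EVNorm livers than in any oil + EVNorm liver (limma log2 fold change 1.35, SE 0.47, adjusted p = 0.0309). The Anxa9 call was lost on leaving out oil + EVNorm replicate 1 or 2 or CCl4 + EVNorm replicate 1 or 3 (adjusted p up to 0.128 from limma). Anxa5 did not differ beyond its error (limma log2 fold change 0.04, SE 0.26, adjusted p = 0.897), and its oil livers alone ranged from 541.6 to 1094.4.

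The stellate cell and myofibroblast markers also differed between these groups. Their sum was 11520 to 13580 with CCl4 + EVNorm and 4979 to 6063 with oil + EVNorm, and each of the 7 measured markers was higher. For macrophage markers the sums were 1412 to 2067 with CCl4 + EVNorm and 912.7 to 1405 with oil + EVNorm, and neither Lyz2 nor Ccr2 passed the threshold. Other markers were lower. The hepatocyte markers Apoa1 and Cyp2e1 summed to 148400 to 173200 with CCl4 + EVNorm and 187600 to 242600 with oil + EVNorm, and Cyp2e1 passed. The endothelial markers Clec4g and Tek (2 of 9 listed) summed to 1459 to 1496 with CCl4 + EVNorm and 1836 to 2199 with oil + EVNorm, and Tek passed. The part of these cells in the levels of the raised members, such as Cd63 and Anxa2, and of the lowered ones, such as Lamp1 and Rab9, was not tested.

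Of the Rab partners, both Rab11 effectors rose. Rab11fip4 had a fold change of 3.38 (limma log2 fold change 1.76, SE 0.41, adjusted p = 0.00593) and passed under all 15 alternatives. Rab11fip5 measured 53.5, 68.2 and 60.5 with CCl4 + EVNorm, 68.6, 46.1 and 68.2 with CCl4, 12.1, 16.0 and 33.7 with oil + EVNorm, 8.4, 23.9 and 27.3 with oil and 6.4, 21.2 and 23.0 in untreated livers. Its CCl4 and CCl4 + EVNorm livers were at about the same level and above every other liver (limma log2 fold change 1.64, SE 0.50, adjusted p = 0.0183). The Rab11fip5 call was lost on leaving out oil + EVNorm replicate 1 or 2 or CCl4 + EVNorm replicate 3 (adjusted p up to 0.0752 from limma). Rab5if, named as an interacting factor of Rab5 and not itself a GTPase, fell (limma log2 fold change -0.46, SE 0.12, adjusted p = 0.011). It had 1359, 1603 and 1473 with CCl4 + EVNorm, 1547, 1574.5 and 1342.5 with CCl4, 2123, 2096 and 1865 with oil + EVNorm, 2293, 2283 and 2371 with oil and 3018, 2183 and 2757 in untreated livers, with all CCl4 and CCl4 + EVNorm livers below the rest. Exons of Sla2 on the opposite strand cover 25.5% of the Rab5if exons, and whether counting used strand is not given in the sources used here. Rab3ip was lower without overlap, short of the threshold (limma log2 fold change -0.33, SE 0.15, adjusted p = 0.0783).

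Among the 5 Rab GTPases, Rab9 and Rab18 fell and none rose. Rab9 measured 630.2, 559 and 569.5 with CCl4 + EVNorm, 778, 785 and 715 with CCl4, 833, 832 and 784 with oil + EVNorm, 1178, 947 and 1006 with oil and 1342, 940.3 and 1005 in untreated livers. Its CCl4 + EVNorm livers were the lowest of all 15 and CCl4 livers next, apart from oil + EVNorm replicate 3, at 783.7, which fell among them (limma log2 fold change -0.48, SE 0.13, adjusted p = 0.0127). Rab9b-ps1, a pseudogene, matches 96.9% of 606 bases of Rab9. Rab18, a GTPase of lipid droplets and the ER, measured 1823, 1871 and 1994 with CCl4 + EVNorm, 1893, 1961 and 1639.6 with CCl4, 2120.2, 2589 and 2151 with oil + EVNorm, 2390.4, 2370.3 and 2427 with oil and 2319, 2325 and 2242 in untreated livers, a small difference without overlap (limma log2 fold change -0.27, SE 0.10, adjusted p = 0.0461). Its call was lost in 10 of 15 alternatives, edgeR, DESeq2 and leaving out oil + EVNorm replicate 1 or 2 or any 1 of the CCl4 + EVNorm livers among them. For Rab38, high in both CCl4 groups, the fold change against oil + EVNorm missed the threshold (limma log2 fold change 0.51, SE 0.33, adjusted p = 0.182). Rab2a, of ER-to-Golgi traffic, and Rab32, of mitochondria and lysosome-related organelles, had log2 fold changes of -0.21 and -0.10.

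Lamp1, a main glycoprotein of the lysosomal membrane, whose promoter with its E-boxes is given above, fell furthest. It lies on chromosome 8 from 13159161 to 13175338 and measured 7686, 7444 and 7773 with CCl4 + EVNorm, 8393, 11521 and 7745 with CCl4, 11530.0, 11455 and 13266 with oil + EVNorm, 11836, 12752 and 13112 with oil and 11975, 11617 and 13426 in untreated livers. The CCl4 + EVNorm livers lay close together (SD 170.4) and stood below all oil, oil + EVNorm and untreated livers, while CCl4 replicate 2 reached the oil + EVNorm range. The fall was 1.58-fold (limma log2 fold change -0.66, SE 0.14, adjusted p = 0.00298) and passed under all 15 alternatives. Lamp2, the lysosomal receptor of chaperone-mediated autophagy, measured 15529.9, 16008 and 15164 with CCl4 + EVNorm, 16524, 17127 and 14918 with CCl4, 19391.5, 19196 and 16370.4 with oil + EVNorm, 22481, 20759.9 and 20738 with oil and 26084, 22694 and 19381 in untreated livers. Its groups did not overlap either, yet the difference was not past the threshold (limma log2 fold change -0.23, SE 0.13, adjusted p = 0.127).

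In the sorting group, 2 of 4 fell. Chmp3, an ESCRT-III subunit, measured 1366, 1372 and 1328 with CCl4 + EVNorm, 1401.5, 1408 and 1326 with CCl4, 1875, 1727 and 1684 with oil + EVNorm, 1999, 1949 and 1828 with oil and 2748, 1892 and 1722 in untreated livers (limma log2 fold change -0.38, SE 0.14, adjusted p = 0.0348). Vps35, the core of the retromer, measured 2195, 2441 and 2379 with CCl4 + EVNorm, 2649, 2702 and 2235 with CCl4, 2993, 3146 and 2616 with oil + EVNorm, 3607, 3233 and 3186 with oil and 4343, 3342 and 3319 in untreated livers (limma log2 fold change -0.32, SE 0.12, adjusted p = 0.047). For both genes every CCl4 + EVNorm liver was below every oil + EVNorm liver. Each of these calls was lost in 9 of 15 alternatives, which for both were edgeR, DESeq2, no trend, adjustment over 17534 genes, and leaving out oil + EVNorm replicate 1 or 2 or any 1 of the CCl4 + EVNorm livers. The ESCRT-III subunit Chmp2a (limma log2 fold change -0.33, SE 0.15, adjusted p = 0.0661) and the sorting nexin Snx25 (limma log2 fold change -0.27, SE 0.13, adjusted p = 0.0776) were lower without overlap and did not pass.

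The largest fold change in this fit, with a pseudocount of 1, belonged to Dnm1, which encodes a dynamin that pinches vesicles from the plasma membrane and is best known from neurons. Its counts were few: 13.2, 18.0 and 8.2 with CCl4 + EVNorm, 11.4, 15.4 and 16.6 with CCl4, 0, 1.9 and 3.5 with oil + EVNorm, 4.2, 3.3 and 2.4 with oil and 2.1, 1.9 and 2.9 in untreated livers. Both CCl4 groups lay above every other liver, and the difference passed (limma log2 fold change 2.52, SE 0.55, adjusted p = 0.00407). It passed under the 14 alternatives that could test it, since its mean count of 7.0 fell under the minimum of 10. With a pseudocount of 5 its log2 fold change was 1.41, below those of Syt12 (1.81), Rab11fip4 (1.72) and Rab11fip5 (1.45). Ehd2, an ATPase of caveolar necks, measured 62.5, 77.6 and 62.1 with CCl4 + EVNorm, 60.4, 89.1 and 83.8 with CCl4, 29.1, 36.7 and 43.0 with oil + EVNorm, 30.6, 34.8 and 58.2 with oil and 54.8, 33.7 and 60.4 in untreated livers and rose without overlap (limma log2 fold change 0.89, SE 0.30, adjusted p = 0.0268). The Ehd2 call was lost on leaving out oil + EVNorm replicate 1 or 2 or any 1 of the CCl4 + EVNorm livers (adjusted p up to 0.096 from limma). Dnm3os measured 66.6, 72.9 and 81.7 with CCl4 + EVNorm, 83.3, 86.7 and 63.3 with CCl4, 47.4, 40.5 and 54.6 with oil + EVNorm, 42.2, 43.5 and 41.6 with oil and 18.3, 51.0 and 25.9 in untreated livers. Both CCl4 groups were above all other livers, and the comparison fell short (limma log2 fold change 0.63, SE 0.30, adjusted p = 0.089), although DESeq2 called it with a log2 fold change of 0.79 and an adjusted p of 0.0336.

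Syt12, a synaptotagmin that lacks calcium binding, rose while varying widely within groups. It measured 69.9, 201 and 287 with CCl4 + EVNorm, 96.4, 212 and 80.9 with CCl4, 26.7, 92.2 and 29.1 with oil + EVNorm, 10.6, 14.1 and 27.3 with oil and 6.4, 14.4 and 15.8 in untreated livers. One oil + EVNorm liver, replicate 2 at 92.2, lay above the lowest CCl4 + EVNorm liver (limma log2 fold change 1.91, SE 0.58, adjusted p = 0.0176). The Syt12 call was lost on leaving out oil + EVNorm replicate 1 or CCl4 + EVNorm replicate 2 or 3 (adjusted p up to 0.0799 from limma). A noncoding gene on the opposite strand, A930001C03Rik, covers 17.2% of its exons. Syt14, also a synaptotagmin without calcium binding, measured 23.9, 54.9 and 49.0 with CCl4 + EVNorm, 23.7, 41.5 and 35.1 with CCl4, 12.1, 12.2 and 11.6 with oil + EVNorm, 0, 9.8 and 10.7 with oil and 11.8, 23.1 and 10.1 in untreated livers. It had CCl4 and CCl4 + EVNorm livers above all others, and its difference fell just short of the threshold with limma (limma log2 fold change 1.67, SE 0.71, adjusted p = 0.0599). Syt14 was called higher by edgeR (log2 fold change 1.94, adjusted p = 0.0187) and by DESeq2 (1.98, adjusted p = 0.00289). Sytl2, a Rab27 effector at secretory granules, overlapped between the groups (limma log2 fold change 0.59, SE 0.37, adjusted p = 0.173).

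Of the SNAREs, Vamp1 rose and the other 3 did not pass with limma. Vamp1 measured 161, 122 and 98.9 with CCl4 + EVNorm, 104.5, 101 and 115 with CCl4, 76.5, 68.7 and 108 with oil + EVNorm, 60.2, 46.7 and 47.5 with oil and 50.5, 52.9 and 63.2 in untreated livers, with oil + EVNorm replicate 3 inside the CCl4 + EVNorm range (limma log2 fold change 0.59, SE 0.23, adjusted p = 0.0483). The Vamp1 call was lost on leaving out oil + EVNorm replicate 1 or 2 or CCl4 + EVNorm replicate 1 or 2 (adjusted p up to 0.195 from limma) and in a fit of only the 2 groups (0.0792). Stx16, a Golgi SNARE, was higher without overlap (limma log2 fold change 0.29, SE 0.12, adjusted p = 0.0578). Vamp8, a SNARE of endosome and autophagosome fusion, was lower without overlap (limma log2 fold change -0.35, SE 0.15, adjusted p = 0.0576). Stx2, a plasma membrane SNARE, overlapped. Stx16 and Stx2 were called higher by edgeR (log2 fold changes 0.41 and 0.30, adjusted p = 0.023 and 0.0458) and by DESeq2 (0.43 and 0.32, adjusted p = 0.00992 and 0.022). In the coat adaptors Ap1s3, a small subunit of the AP-1 adaptor, rose (limma log2 fold change 1.21, SE 0.33, adjusted p = 0.0109). It measured 50.2, 72.1 and 80.1 with CCl4 + EVNorm, 56.4, 59.1 and 37.0 with CCl4, 30.4, 27.3 and 26.7 with oil + EVNorm, 12.7, 26.1 and 26.1 with oil and 34.4, 35.6 and 54.6 in untreated livers, and all CCl4 + EVNorm livers exceeded all oil + EVNorm livers. Ap1s3 has 3 pseudogenes that match it at 95.4 to 97.8%. Ap4s1, of the AP-4 adaptor, had a log2 fold change of -0.27.

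The 3 Arf-like genes and the 3 ER genes had no call with limma. Arl1, a GTPase of the trans-Golgi, was lower without overlap (limma log2 fold change -0.28, SE 0.15, adjusted p = 0.108), and Arl4c and Arl6ip6 overlapped. Sec61g, a subunit of the ER translocation channel, measured 866, 1128 and 1052 with CCl4 + EVNorm, 1178, 1214 and 876 with CCl4, 1480.3, 1616 and 1113 with oil + EVNorm, 1687, 2083 and 2171 with oil and 3293, 1869 and 2983 in untreated livers. Its CCl4 and CCl4 + EVNorm livers were lower than oil and untreated livers, with oil + EVNorm replicate 3 among them (limma log2 fold change -0.46, SE 0.21, adjusted p = 0.0712). Sec61a2, a form of the channel's main subunit, was in the opposite direction (limma log2 fold change 0.39, SE 0.18, adjusted p = 0.0797). It was called higher by edgeR (log2 fold change 0.52, adjusted p = 0.0398) and by DESeq2 (0.54, adjusted p = 0.0187). Exons of Nudt5 on the opposite strand cover 19.9% of the Sec61a2 exons.

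The vehicle comparison asks what repeated oil injection did. Here too the oil livers had entered the choice of the genes. With limma, 0 of 41 members passed for oil against untreated livers, and 0 did with edgeR or DESeq2. Of all genes 0.712% were higher and 0.199% lower by limma. At an unadjusted p under 0.05, 0 members were higher and 5 lower, namely Tspan17, Ap1s3, Rab38, Vamp8 and Syt14. By the same unadjusted rule 210 of all genes of the table were higher and 314 lower. Tspan17 gave the lowest p, with 3 oil livers at 14.8, 21.7 and 22.6 and 3 untreated livers at 45.1, 29.8 and 43.1 (limma log2 fold change -0.96, SE 0.29, adjusted p = 0.157). Ap1s3 was likewise lower without overlap (limma log2 fold change -0.95, SE 0.33, adjusted p = 0.223). Untreated replicate 1 was the highest of the untreated livers in Cd63, Cd81, Anxa2, Anxa5 and Rab9. In 2 members the oil livers lay above and in 3 below the untreated livers, against 6.75% and 8.32% of all genes. Leaving out untreated replicate 2 gave 1 member higher (Dnm3os) and 3 lower (Sec61g, Tspan17 and Vamp8). The share of all genes called in that fit was not counted, so these calls cannot be set against the table at large.

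Trafficking genes outside the symbol rule were read from 6 lists of the same pathways, of which 34 of 207 genes are in the table. With CCl4 + EVNorm against CCl4, 0 were higher and 1 was lower, against 0.513% and 5.16% of all genes. The lower gene was Cavin2, a coat protein of caveolae. It averaged 294 ± 12.8 with CCl4 + EVNorm and 436 ± 30.6 with CCl4 (SD, n = 3 each; limma log2 fold change -0.56, SE 0.14, adjusted p = 0.0215). Cavin2 was also the 1 listed gene past the threshold with oil + EVNorm against oil, where its mean was 390.0 ± 42.8 against 647 ± 47.00 (limma log2 fold change -0.73, SE 0.14, adjusted p = 0.0491). For CCl4 + EVNorm against oil + EVNorm, 7 of the 34 listed genes were higher and 13 lower, against 20.5% and 29.1% of all genes. The higher were Arfgap1, Kdelr3, Exoc4, Cavin1, Eps15l1, Itsn1 and Sorl1. Among the 13 measured ER-Golgi genes, 2 were higher and 7 were lower. One of the lower was Sar1b, the GTPase that starts COPII coats on carriers leaving the ER. It averaged 3136 ± 378 with CCl4 + EVNorm and 4721 ± 99.5 with oil + EVNorm (limma log2 fold change -0.60, SE 0.13, adjusted p = 0.00407). None of the 34 passed for oil against untreated livers or for the difference of vesicle effects.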

How the data were processed

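Whole-liver RNA of 15 mice, 3 per group, was depleted of ribosomal RNA and made into stranded libraries. The authors aligned reads with STAR to GRCm38.p3, counted them per gene with featureCounts and used DESeq2. The deposited signal is the read count of each gene divided by a size factor per library, to 1 decimal. The authors' log2 fold changes with their standard errors and their score (Wald statistic) for CCl4 against oil are in the table and were not used. The deposited p-values served only to find that the authors adjusted over 17534 genes, of which the table holds the 3511 under 0.05.

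The 41 members were selected by symbol, and members and gene lists were chosen with earlier results of these data known. limma 3.58.1 (R 4.3.3) was fitted to log2(normalized count + 1) of all 15 libraries with a mean-variance trend and no filter, two-sided, with Benjamini-Hochberg adjustment over 3511 genes and a threshold of 0.05. Fold changes of low genes are understated on this scale. The methods of the study describe the 3 libraries of a group as 3 mice, and they were treated as such. Values were given in each library for members past the threshold in a vesicle comparison, for the 5 lowest p of CCl4 + EVNorm against CCl4, for up to 3 members per role past the threshold in CCl4 + EVNorm against oil + EVNorm, and for Cd63 and Cd81. Others named with values (Rab38, Tmed6, Lamp2, Dnm3os, Syt14, Sec61g and the listed genes Cavin2 and Sar1b) were chosen after their values were seen.

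Other settings tried were pseudocounts of 0.5 and 5, a minimum mean count of 10, a prior without trend, fits of only the groups compared, adjustment over 17534 genes, the replicate number as a block, each replicate left out, and edgeR 4.0.16 (TMM) and DESeq2 1.42.0 on whole reads. These were recovered by dividing by the value of 1 read, and 100% came out whole within 0.05. Adjustment over 17534 genes counted the genes outside the table, which were not fitted, as ranked behind those in it. Same-numbered CCl4 + EVNorm and CCl4 livers deviated together (correlations 0.23, 0.18 and 0.17), a pairing seen in the data, since the sources used here do not say what a number marks. For the other comparisons the correlations ran from -0.13 to 0.16, and the highest, for oil against untreated livers, came close to these. Whether the numbers pair the livers was not tested. Coordinates, exon lengths and overlaps are from GENCODE M21 on GRCm38. Pseudogene transcripts were aligned to the members, and matches of at least 95% over 200 bases were kept. Precision is limited by counting error and by having 3 mice per group.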

Additional observations from a re-analysis of the deposited data

How the results depend on the processing

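None of the 22 fold changes of single members followed through the alternatives changed sign. Summaries over genes did change direction. The members' median log2 fold change for CCl4 + EVNorm against CCl4 was -0.01 with limma, 0.03 with edgeR and 0.02 with DESeq2. Over all genes, calls for CCl4 + EVNorm against oil + EVNorm were mostly lower with limma and mostly higher with edgeR and DESeq2. For CCl4 + EVNorm against CCl4 the count of members that were higher was 1. This count became 0 without the mean-variance trend and 0 with adjustment counted over 17534 genes, of which those outside the table were not fitted. It ran from 0 to 1 on leaving out 1 replicate. The count that were lower, 1, became 2 with only the groups compared (Anxa2 and Anxa5), 0 with adjustment over 17534 genes, and ran from 0 to 1 on leaving out 1 replicate. For oil + EVNorm against oil DESeq2 gave 1 higher member in place of 0, and 127 of all genes higher in place of 5. For CCl4 + EVNorm against oil + EVNorm the 11 higher became 3 with adjustment over 17534 genes and ran from 5 to 12 without 1 replicate. The 6 lower became 3 without the trend, 3 with edgeR, 3 with DESeq2 and 1 with adjustment over 17534 genes, and ran from 3 to 11 without 1 replicate, the 11 being without oil + EVNorm replicate 3. With edgeR and DESeq2 the share of called members that were higher was 83.3% and 84.2%, against 64.7% in the limma fit. Over all genes this share rose as well, to 56.6% and 60.2% from 41.3%. For oil against untreated livers, leaving out 1 replicate gave 0 to 1 higher and 0 to 3 lower in place of 0 and 0. Shares of all genes were not counted for the fits that left out 1 replicate, and the causes of these changes were not tested.

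With the replicate number as a block both calls for CCl4 + EVNorm against CCl4 were kept (Anxa2 at an adjusted p of 0.0165 and Rab11fip4 at 0.00919 from limma), and the counts were 1 higher and 1 lower. The block gave 12 higher and 7 lower for CCl4 + EVNorm against oil + EVNorm, whose same-numbered livers were not shown to be paired. Averaging oil replicates 2 and 3, an alternative chosen after seeing the data, gave 0 calls among members for oil + EVNorm against oil and for oil against untreated livers. The main fit had given 0 there as well. Comparisons without oil livers, which share the estimate of spread with them, were not refitted in this way. Cd63, Lamp1 and Rab11fip4 passed for CCl4 + EVNorm against oil + EVNorm under all 15 alternatives, and Dnm1 under the 14 that kept it. Depth limits Tmed6 and Dnm1, whose mean counts were lowest.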
